A study of Homo sapiens with 20 samples.

Results

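The 10 genes described here are early response genes, which cells switch on within minutes of a stimulus without making new protein. They are 3 members of the EGR family (EGR1, EGR2 and EGR3), the 3 NR4A receptors (NR4A1, NR4A2 and NR4A3), the immediate early response genes IER2, IER3 and IER5, and PHLDA1. The genes were taken by symbol from a table of 27896 gene symbols, with the transcript that held the most reads standing for each gene. All samples came from HEK293-GR, a cell line of human embryonic kidney origin that constitutively expresses the glucocorticoid receptor (GR), and every group was kept in steroid-depleted medium for 48 h. RNA was sequenced from 4 groups of 4 libraries each. The groups were siBCOR dex, siBCOR EtOH, siNON dex and siNON EtOH. In the siBCOR groups a pool of siRNAs depleted the corepressor BCOR, and the siNON groups received a non-targeting pool, both at 20 nM for 72 h. The dex groups were exposed for 6 h to 100 nM of the synthetic glucocorticoid dexamethasone, and the EtOH groups received the same volume of ethanol. BCOR binding was mapped by ChIP-seq after 1 h of dexamethasone or ethanol, with 2 libraries for each treatment and no siRNA given in the labels.

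Early response genes are driven mainly by the ERK pathway acting on serum response factor (SRF) at CArG boxes, and by cAMP signalling acting on CREB at cAMP response elements. EGR proteins are zinc finger transcription factors, and the NR4A proteins are orphan nuclear receptors that bind DNA without a known hormone. Several early response genes are also known targets of activated GR, which raises some and lowers others. BCOR is a corepressor that works with BCL6 and as part of a Polycomb complex. The comparisons ask how the hormone changed these genes, how BCOR depletion changed them, and whether depletion changed the hormone response.

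The libraries held between 18580294 and 28054808 reads over the transcripts used. BCOR itself averaged 14.8 ± 0.706 CPM (edgeR's depth-scaled read count, with TMM factors) in siBCOR dex libraries, 22.4 ± 0.796 in siBCOR EtOH libraries, 93.8 ± 15.9 in siNON dex libraries and 196 ± 29.4 in siNON EtOH libraries (SD, n = 4 each). BCOR was thus lower after depletion in both treatments, and it also fell with dexamethasone, in siBCOR cells (log2 fold change −0.60 ± 0.122 SE, edgeR adjusted p = 0.00155) and in siNON cells (−1.06 ± 0.113 SE, adjusted p = 1.45e-06). NR3C1, the gene of GR, averaged 864 ± 23.2 CPM in siBCOR dex libraries, 1107 ± 36.4 in siBCOR EtOH libraries, 706 ± 29.7 in siNON dex libraries and 998 ± 65.3 in siNON EtOH libraries. All 7 markers of HEK293 cells were present, and 0 of 4 liver markers, 2 of 7 fibroblast markers and 1 of 5 immune markers reached a mean of 1 CPM. The libraries siNON dex replicate 4, siNON EtOH replicate 3 and siBCOR EtOH replicate 2 lay farthest from the rest of their groups (root mean square difference of 0.373, 0.355 and 0.342 in log2 CPM, against 0.191 to 0.264 for the other 13). Of the members, 8 of 10 had their lowest siBCOR dex value in replicate 4 and 6 of 10 their highest in replicate 3. The highest value was likewise in siNON dex replicate 2 for 6 of 10 and in siNON EtOH replicate 1 for 6 of 10, each within its own group. Such counts were not made over all genes, so whether they are particular to the members is not known here. In bulk RNA, fewer cells with a transcript and less transcript per cell cannot be told apart.

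Promoter sequences are shown first, because the genes differ in which of the classic early response elements lie near their starts. RefSeq sequences of 300 bases on GRCh38.p14, with 250 bases before the transcription start and 50 after it, were given for 7 of the 10 genes, and 5 are printed. Capitals mark matches on either strand to the CArG box, to TGACG (the core of the cAMP response element) and to GCGNGGGCG (the EGR site). EGR1 and EGR2 are shown for their CArG boxes, NR4A3 for its run of TGACG cores, and NR4A1 and PHLDA1 as the 2 genes that rose with dexamethasone. The NR4A1 window is 1 of 2 listed, and the gene has a further start without a window.
EGR1 (chr5:138465229-138465528, plus strand): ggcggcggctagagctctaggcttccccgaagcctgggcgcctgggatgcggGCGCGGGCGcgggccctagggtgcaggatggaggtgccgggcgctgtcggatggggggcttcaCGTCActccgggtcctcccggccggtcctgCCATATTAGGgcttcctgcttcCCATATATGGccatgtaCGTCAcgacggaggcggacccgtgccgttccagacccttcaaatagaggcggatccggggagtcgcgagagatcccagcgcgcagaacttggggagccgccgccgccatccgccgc
EGR2 (chr10:62816317-62816616, minus strand): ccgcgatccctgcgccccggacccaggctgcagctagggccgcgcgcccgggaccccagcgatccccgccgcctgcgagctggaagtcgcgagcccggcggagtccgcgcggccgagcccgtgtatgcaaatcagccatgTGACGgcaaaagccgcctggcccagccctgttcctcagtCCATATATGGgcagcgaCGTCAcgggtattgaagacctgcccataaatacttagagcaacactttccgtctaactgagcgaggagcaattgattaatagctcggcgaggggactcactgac
NR4A3 (chr9:99821635-99821934, plus strand): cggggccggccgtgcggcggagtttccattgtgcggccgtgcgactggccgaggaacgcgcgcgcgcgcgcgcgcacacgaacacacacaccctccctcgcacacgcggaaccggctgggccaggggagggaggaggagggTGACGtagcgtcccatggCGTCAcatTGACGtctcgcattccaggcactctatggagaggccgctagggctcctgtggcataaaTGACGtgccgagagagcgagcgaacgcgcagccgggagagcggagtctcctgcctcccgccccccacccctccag
NR4A1 (chr12:52037465-52037764, plus strand): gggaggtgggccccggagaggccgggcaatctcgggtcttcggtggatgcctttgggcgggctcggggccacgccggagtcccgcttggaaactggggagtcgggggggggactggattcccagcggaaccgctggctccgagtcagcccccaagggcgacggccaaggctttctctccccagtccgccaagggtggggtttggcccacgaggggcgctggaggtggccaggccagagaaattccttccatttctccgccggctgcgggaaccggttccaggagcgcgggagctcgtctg
PHLDA1 (chr12:76031727-76032026, minus strand): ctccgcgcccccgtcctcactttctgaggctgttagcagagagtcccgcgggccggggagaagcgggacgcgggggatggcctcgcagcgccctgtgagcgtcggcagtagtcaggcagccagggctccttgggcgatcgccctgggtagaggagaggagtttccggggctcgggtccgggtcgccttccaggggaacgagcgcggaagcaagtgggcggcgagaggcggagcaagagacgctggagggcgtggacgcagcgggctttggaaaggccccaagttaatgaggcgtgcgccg

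The EGR1 window held CArG boxes starting 105 and 83 bases upstream of the start, TGACG cores at 135 and 66 bases upstream, and an EGR site at 198 bases upstream. The EGR2 window held a CArG box at 71 bases upstream between TGACG cores at 110 and 54 bases upstream, and another of its 3 listed starts held an EGR site 9 bases into the transcript. NR4A3 had 4 TGACG cores, at 109, 91, 83 and 25 bases upstream, and IER2 had 1, at 140 bases upstream. These letters were not found in the windows of IER5 and PHLDA1, nor in either window listed for NR4A1. The NR4A1 transcripts that start at 52445186 on hg19 had no window listed, so that promoter was not read. Of these, the transcript of 2669 nucleotides held 10963 reads, against 10991 for the longer transcript used. The start mainly in use may therefore be the unread one, and whether the elements lie near it is not known here. Over 35116 promoters of the same length, 1.29% held a CArG box, 24.6% a TGACG core and 9.43% an EGR site. Of the 10 listed starts of the 7 genes, the CArG box was near 2, the TGACG core near 4 and the EGR site near 2. The words TGACGTCA, AAAGGTCA (bound by NR4A receptors), AGAACA (part of a GR site) and TATAAA were in none of the 10 listed starts of these genes, against 1.85%, 1.22%, 14.8% and 11.5% of all promoters. A match is a description of the letters and not of binding.

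Levels of different genes are compared here as CPM per kilobase of transcript. For NR4A1 the transcript used is 3507 nucleotides long and held 10991 reads, while another of 2669 nucleotides held 10963. With the shorter length the NR4A1 values would be higher, so its place in the orders below depends on the transcript chosen. In siBCOR dex cells IER5 was the most abundant at 16.6 ± 1.17 (SD, n = 4 each). PHLDA1 at 12.9 ± 1.19 and IER2 at 12.8 ± 0.781 came next, with overlapping libraries, followed by NR4A1 at 9.26 ± 1.22. IER3 at 5.90 ± 0.513 and EGR1 at 5.48 ± 0.876 overlapped each other. In siNON dex cells IER5 led at 17.8 ± 1.58, and IER2 at 14.4 ± 1.06, NR4A1 at 12.8 ± 1.48 and PHLDA1 at 12.1 ± 1.02 formed a chain in which each gene overlapped the next. PHLDA1 was thus among the 4 most abundant of the 10 in both dex groups.

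Without the hormone the order was different. In siBCOR EtOH cells IER5 stood at 30.9 ± 3.11, IER2 at 14.5 ± 2.09 and IER3 at 10.4 ± 0.664, and PHLDA1 was only at 1.32 ± 0.0902, below NR4A2 at 2.01 ± 0.0852. In siNON EtOH cells IER5 stood at 31.8 ± 2.45, IER2 at 18.1 ± 1.63 and IER3 at 10.2 ± 1.91. EGR1 at 7.33 ± 1.61 and NR4A1 at 6.41 ± 0.913 followed in siNON EtOH cells, and EGR1 overlapped both IER3 and NR4A1. PHLDA1 at 1.29 ± 0.0578 and NR4A2 at 1.26 ± 0.0645 could not be ordered there, and neither could EGR3 at 0.540 ± 0.0880 and NR4A3 at 0.511 ± 0.101. EGR2 had the lowest mean in each of the 4 groups, between 0.0816 and 0.313. Its libraries lay below those of the other genes in both siBCOR groups and overlapped those of NR4A3 in both siNON groups.

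**Figure D1:**
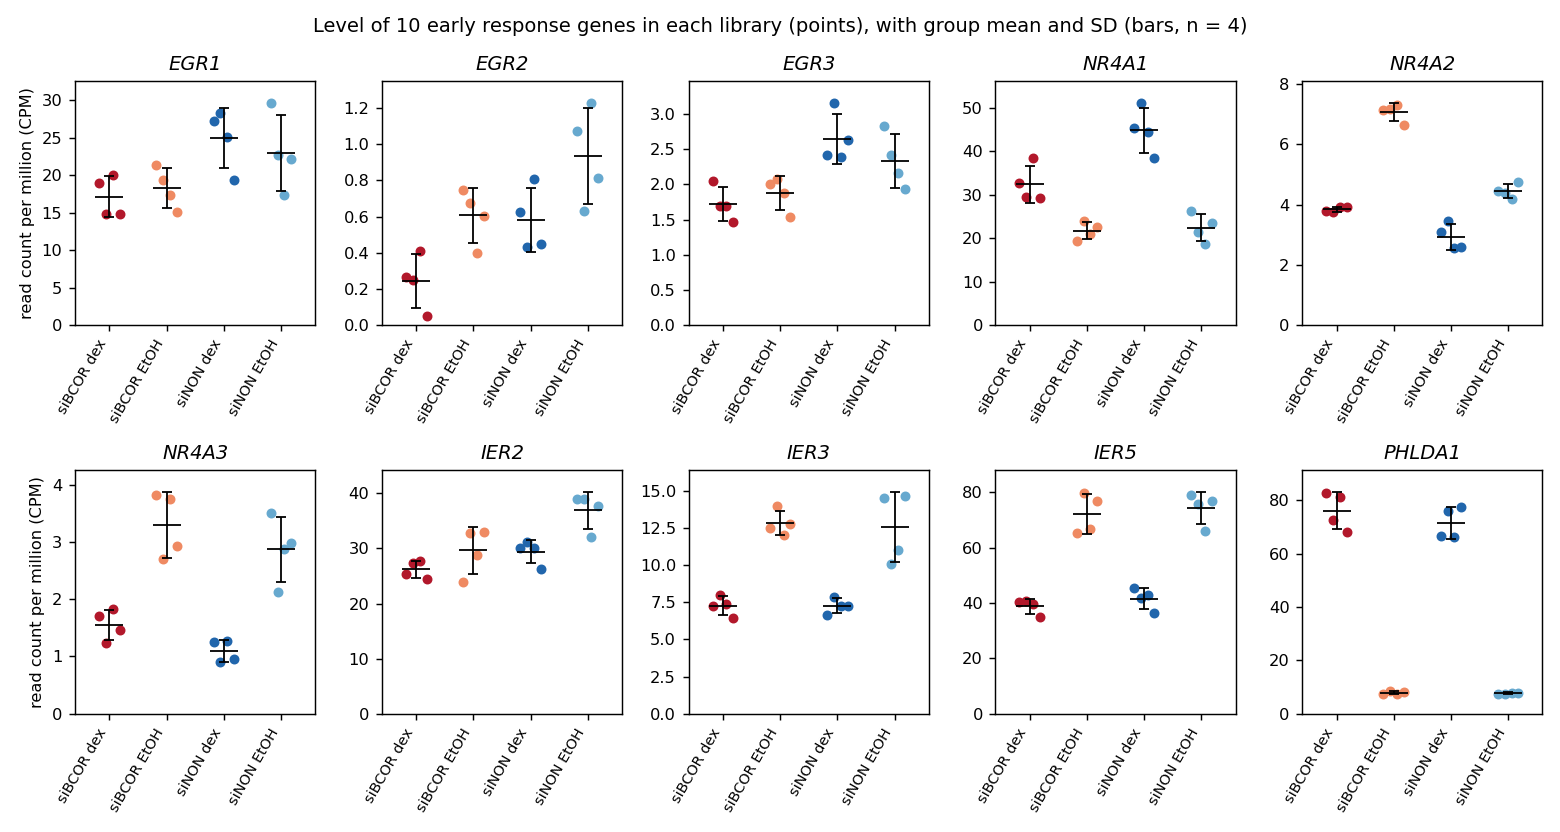
CPM of each gene (vertical axis, linear from 0) in every library (points) of the 4 groups, with the group mean and SD (n = 4). PHLDA1 was between 66.1 and 82.5 CPM in the dex libraries and between 7.21 and 8.39 CPM in the EtOH libraries, while IER5, IER3 and NR4A3 lay lower with dexamethasone.

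Dexamethasone raised 2 of the 10 genes and lowered 5 in siBCOR cells, and likewise raised 2 and lowered 5 in siNON cells (adjusted p under 0.05 over 16432 genes tested). PHLDA1 and NR4A1 rose in both kinds of cell. NR4A2, NR4A3, IER3 and IER5 fell in both, EGR2 was called lower in siBCOR cells and IER2 in siNON cells. Of all genes tested, 10.5% were called higher and 12.5% lower in siBCOR cells, and 10.7% higher and 8.64% lower in siNON cells. The median log2 fold change of the 10 genes was −0.49 in siBCOR cells, where that of all genes was 0.003, and −0.46 in siNON cells, where that of all genes was −0.004. The libraries of the 2 treatments did not overlap for 6 of the 10 genes in siBCOR cells and for 7 in siNON cells, against 30.7% and 19.9% of all genes tested. The count of lowered genes in siBCOR cells was 4 without siBCOR dex replicate 2 or 4 or siBCOR EtOH replicate 2, and with only the 2 groups in the fit. That in siNON cells was 4 without siNON dex replicate 1 or 4 or siNON EtOH replicate 1, 2 or 4, and with upper quartile scaling. All p-values here are two-sided, from edgeR's quasi-likelihood test with Benjamini-Hochberg adjustment, and the 2 hormone comparisons share no library.

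**Figure D2:**
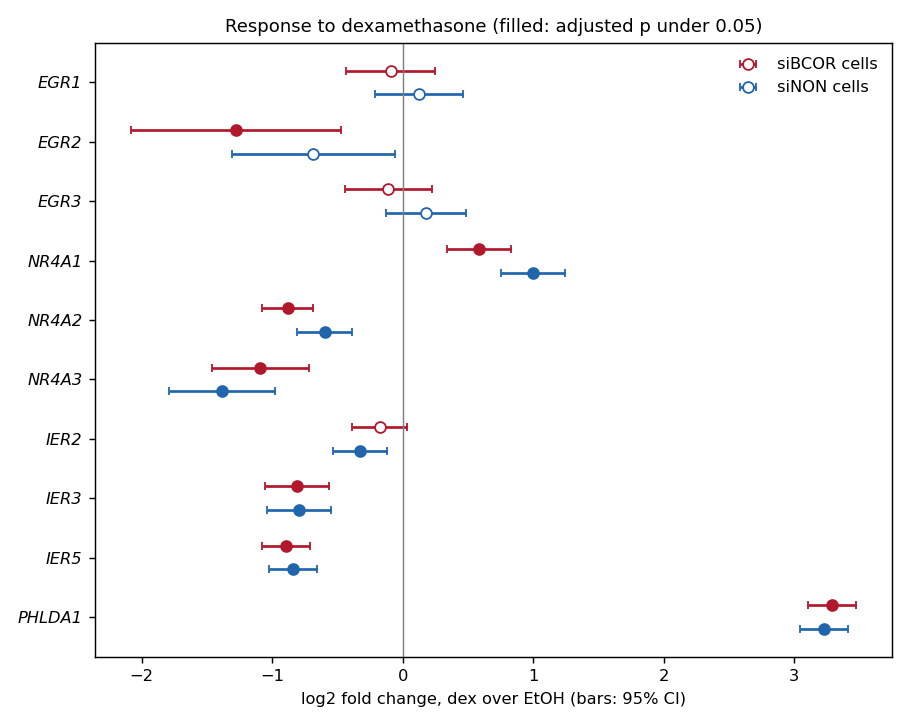
Log2 fold change of dexamethasone over ethanol (horizontal axis) for each gene in siBCOR cells (red, upper) and siNON cells (blue, lower), with 95% confidence intervals, where filled points passed adjusted p under 0.05. PHLDA1 stands at 3.29 in siBCOR cells and 3.23 in siNON cells, NR4A1 is the only other gene with filled points above 0, and IER3, IER5, NR4A2 and NR4A3 have filled points below 0 in both.

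Fewer of the 10 were called after BCOR depletion. With dexamethasone present, siBCOR cells had higher NR4A2 (1 of 10 genes) and lower EGR1, EGR2, EGR3 and NR4A1 (4 of 10) than siNON cells. EGR2 was too low to pass the filter on low counts in these 2 groups alone. With ethanol, siBCOR cells had higher NR4A2 (1 of 10) and lower IER2 (1 of 10). Among all genes tested, 20.7% were called higher and 18.8% lower with dexamethasone, and 8.87% higher and 8.23% lower with ethanol. The share of the 10 genes called was therefore close to the share of all genes with ethanol, while with dexamethasone the lowered share was above it and the raised share below it. Libraries of the 2 siRNA groups did not overlap for 4 of the 10 genes with dexamethasone and for 1 with ethanol, against 34.2% and 18% of all genes. The median log2 fold change of the 10 was −0.13 with dexamethasone and −0.05 with ethanol, where that of all genes was 0.025 in both. Each of these comparisons shares its libraries with the hormone comparisons. The direction of all calls depended on the scaling: 52.5% of called genes were higher with dexamethasone and 51.9% with ethanol under TMM, against 66.2% and 64.3% with library totals alone, and 40.5% with ethanol under DESeq2's size factors in edgeR and 34.4% with ethanol without siNON EtOH replicate 3.

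**Figure D3:**
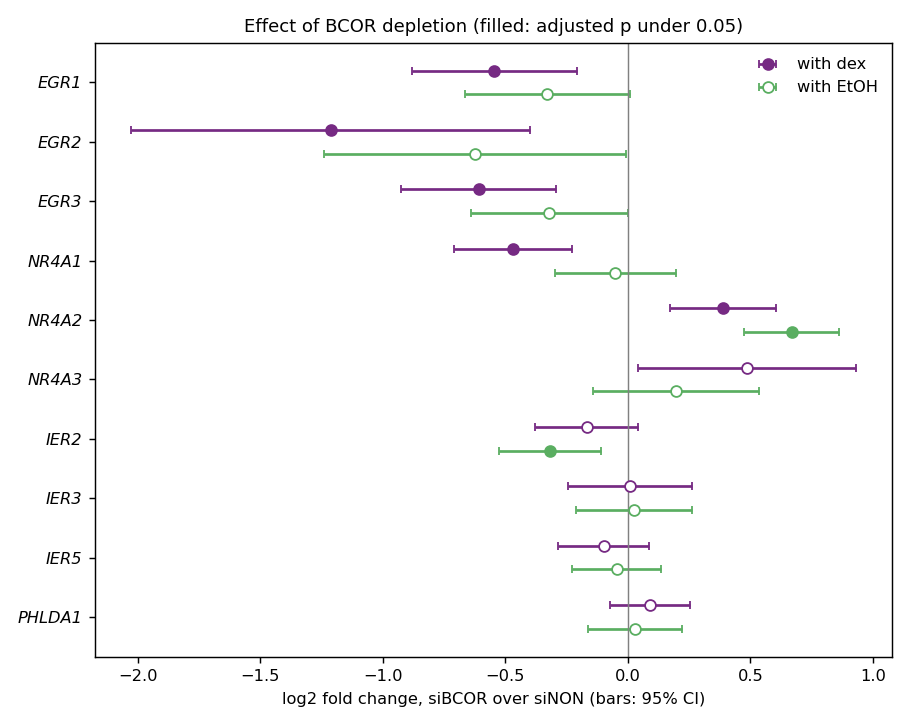
Log2 fold change of siBCOR over siNON cells (horizontal axis) for each gene with dexamethasone (purple, upper) and with ethanol (green, lower), with 95% confidence intervals, where filled points passed adjusted p under 0.05. NR4A2 lies above 0 in both treatments at 0.39 and 0.67, and the 3 EGR genes and NR4A1 have filled points below 0 with dexamethasone.

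PHLDA1 encodes a pleckstrin homology-like protein linked to apoptosis and growth factor signalling, and it changed most of the 10. PHLDA1 had 82.5, 72.6, 81.3 and 67.9 CPM in the siBCOR dex libraries and 7.50, 8.39, 7.22 and 8.07 CPM in the siBCOR EtOH libraries. In siNON cells it had 66.5, 75.8, 66.1 and 77.5 CPM with dexamethasone and 7.21, 7.50, 7.91 and 7.90 CPM with ethanol. Every dex library lay far above every EtOH library, and the siBCOR and siNON ranges met within each treatment. The rise was 9.76-fold in siBCOR cells (log2 fold change 3.29 ± 0.0883 SE, edgeR adjusted p = 1.2e-14) and 9.36-fold in siNON cells (3.23 ± 0.0881 SE, adjusted p = 1.49e-14). BCOR depletion gave a log2 fold change of 0.09 with dexamethasone (95% CI −0.07 to 0.25) and 0.03 with ethanol (−0.16 to 0.22), neither of them called.

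NR4A1, the nuclear receptor known as NGFI-B, was the other gene that rose. It had 32.7, 29.4, 38.4 and 29.3 CPM in the siBCOR dex libraries and 19.4, 23.9, 20.9 and 22.7 CPM in the siBCOR EtOH libraries. With siNON, the libraries had 45.4, 51.1, 44.5 and 38.5 CPM with dexamethasone and 26.2, 21.4, 18.7 and 23.6 CPM with ethanol. The dex libraries stood above the EtOH libraries in both kinds of cell, and each siBCOR dex library was below each siNON dex library, although the closest pair stood at 38.4 CPM in siBCOR and 38.5 CPM in siNON cells. Dexamethasone raised NR4A1 1.5-fold in siBCOR cells (log2 0.58 ± 0.116 SE, adjusted p = 0.00137) and 2.00-fold in siNON cells (log2 1.00 ± 0.116 SE, adjusted p = 4.4e-06). With dexamethasone NR4A1 was 1.38-fold lower in siBCOR cells (log2 −0.47 ± 0.114 SE, adjusted p = 0.00541), and with ethanol the difference of −0.05 was not called (95% CI −0.30 to 0.20).

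NR4A2, a receptor required for dopamine neurons, was the one gene of the 10 that BCOR depletion raised in both treatments. NR4A2 had 3.79, 3.74, 3.93 and 3.91 CPM in the siBCOR dex libraries and 7.14, 7.18, 7.32 and 6.63 CPM in the siBCOR EtOH libraries. The siNON libraries had 3.09, 3.46, 2.56 and 2.58 CPM with dexamethasone and 4.46, 4.40, 4.19 and 4.74 CPM with ethanol. No 2 of the 4 groups overlapped, siBCOR EtOH libraries being highest and siNON dex libraries lowest. Depletion raised it 1.31-fold with dexamethasone (log2 0.39 ± 0.102 SE, adjusted p = 0.0081) and 1.59-fold with ethanol (0.67 ± 0.0908 SE, adjusted p = 0.000123). The call with dexamethasone was lost without siNON dex replicate 3 (0.32, adjusted p = 0.0506, with a range over all alternatives of 0.0039 to 0.0506). The hormone lowered NR4A2 1.84-fold in siBCOR cells (log2 −0.88 ± 0.0920 SE, adjusted p = 1.3e-06) and 1.52-fold in siNON cells (−0.60 ± 0.10 SE, adjusted p = 0.000253).

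NR4A3, the third receptor of the family, fell with the hormone. NR4A3 had 1.71, 1.24, 1.83 and 1.46 CPM in the siBCOR dex libraries and 3.83, 2.70, 3.76 and 2.92 CPM in the siBCOR EtOH libraries. In cells with siNON, values were 1.25, 0.908, 1.28 and 0.953 CPM with dexamethasone and 3.50, 2.13, 2.88 and 2.98 CPM with ethanol. All dex libraries lay below all EtOH libraries of the same siRNA, and the siRNA groups overlapped within each treatment. NR4A3 was 2.13-fold lower with dexamethasone in siBCOR cells (log2 −1.09 ± 0.176 SE, adjusted p = 0.000174) and 2.61-fold lower in siNON cells (−1.38 ± 0.192 SE, adjusted p = 3.54e-05). Depletion gave 0.49 with dexamethasone (95% CI 0.04 to 0.93, adjusted p = 0.0751) and 0.20 with ethanol (95% CI −0.14 to 0.54), neither called. The difference with dexamethasone passed with library totals alone (adjusted p = 0.0482) and without siBCOR dex replicate 2 (adjusted p = 0.0469).

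The makeup of the NR4A transcripts in each group follows from these values. Per kilobase, NR4A1 made up 87.0% ± 1.03 of the summed NR4A level in siBCOR dex libraries, 70.4% ± 3.01 in siBCOR EtOH libraries, 92.6% ± 0.369 in siNON dex libraries and 78.2% ± 1.72 in siNON EtOH libraries (SD, n = 4 each). NR4A2 made up 10.4% ± 1.08 in siBCOR dex libraries, 22.9% ± 1.60 in siBCOR EtOH libraries, 6.00% ± 0.450 in siNON dex libraries and 15.6% ± 1.46 in siNON EtOH libraries. NR4A3 made up the remainder, with group means between 1.43% and 6.73%. The libraries of the 4 groups did not overlap in the NR4A1 share or in the NR4A2 share. The summed level was 10.6 ± 1.27 CPM per kilobase in siBCOR dex, 8.79 ± 0.448 in siBCOR EtOH, 13.8 ± 1.58 in siNON dex and 8.18 ± 1.02 in siNON EtOH libraries. These shares restate the 3 genes' values and were not tested. They rest on a length of 3507 nucleotides for NR4A1. With its transcript of 2669 nucleotides, which held nearly as many reads, the NR4A1 share and the summed level would be higher. EGR1 likewise made up 91.9% of the EGR level in siBCOR dex, 90.2% in siBCOR EtOH, 90.7% in siNON dex and 89.4% in siNON EtOH libraries. The siBCOR dex libraries lay above those of both EtOH groups in this share and overlapped the siNON dex libraries.

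**Figure D4:**
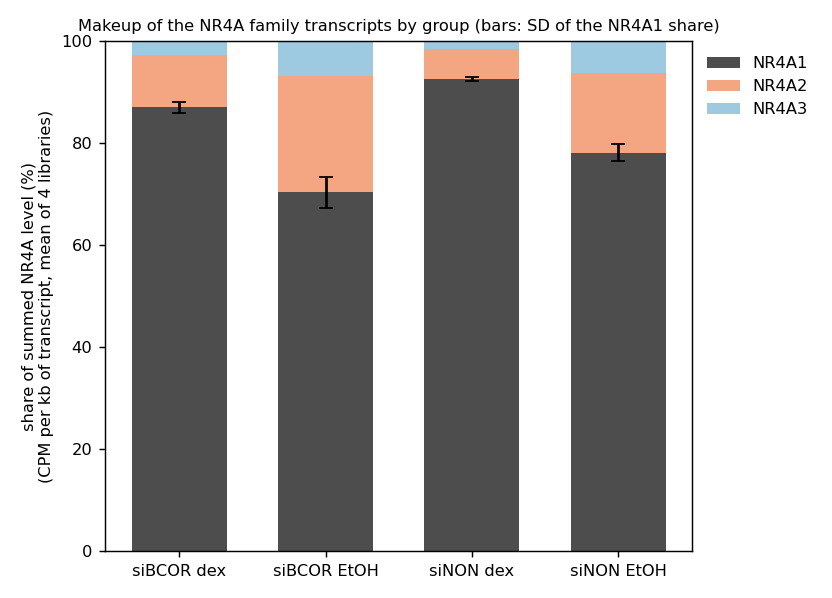
Share of the summed NR4A level (vertical axis, percent, from CPM per kilobase) held by NR4A1, NR4A2 and NR4A3 in each group, as means of 4 libraries with the SD of the NR4A1 share. The NR4A1 share was 87.0% in siBCOR dex, 70.4% in siBCOR EtOH, 92.6% in siNON dex and 78.2% in siNON EtOH libraries.

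Among the IER genes, IER5, which promotes activation of the heat shock factor HSF1, was the most abundant. IER5 had 40.5, 40.6, 39.5 and 34.8 CPM in the siBCOR dex libraries and 65.4, 80.0, 66.6 and 76.8 CPM in the siBCOR EtOH libraries. Under siNON, it had 45.4, 41.7, 42.8 and 36.5 CPM with dexamethasone and 79.1, 75.7, 66.1 and 76.9 CPM with ethanol. The treatments were well apart and the siRNA groups overlapped. IER5 was 1.86-fold lower with dexamethasone in siBCOR cells (log2 −0.89 ± 0.0871 SE, adjusted p = 5.5e-07) and 1.79-fold lower in siNON cells (−0.84 ± 0.0870 SE, adjusted p = 1.05e-06). Depletion gave −0.10 with dexamethasone (95% CI −0.28 to 0.09) and −0.05 with ethanol (95% CI −0.23 to 0.14), neither called.

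IER3, a regulator of apoptosis and ERK signalling, fell by a similar factor. IER3 had 7.27, 8.01, 7.40 and 6.47 CPM in the siBCOR dex libraries and 12.5, 14.0, 12.1 and 12.8 CPM in the siBCOR EtOH libraries. In siNON cells it had 6.63, 7.87, 7.28 and 7.29 CPM with dexamethasone and 14.5, 10.1, 11.04 and 14.7 CPM with ethanol. Dex and EtOH libraries did not overlap. IER3 was 1.76-fold lower with dexamethasone in siBCOR cells (log2 −0.81 ± 0.116 SE, adjusted p = 5.12e-05) and 1.73-fold lower in siNON cells (−0.79 ± 0.117 SE, adjusted p = 6.45e-05). Depletion gave 0.01 with dexamethasone (95% CI −0.25 to 0.26) and 0.03 with ethanol (−0.21 to 0.26), and the sign of both turned with the scaling. The gene overlaps IER3-AS1 on the opposite strand over 475 bases. The antisense transcript held 34.0% as many reads, and the counting command in the file header names no strand setting, so whether reads of the pair were kept apart is not known here. The deposited annotation also carries a copy value of 6 for the IER3 transcript, with its position given on chromosome 6. Where the copies lie was not examined.

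IER2, a nuclear protein that rises with growth factors, showed small differences. IER2 had 25.3, 27.3, 27.8 and 24.4 CPM in the siBCOR dex libraries and 24.0, 32.8, 28.8 and 33.1 CPM in the siBCOR EtOH libraries. With siNON, the libraries had 30.1, 31.2, 30.1 and 26.3 CPM with dexamethasone and 39.0, 39.0, 32.0 and 37.7 CPM with ethanol. The siNON EtOH libraries were the highest, and they did not overlap the siNON dex libraries but met the siBCOR EtOH range. Dexamethasone gave −0.18 ± 0.0995 SE in siBCOR cells, which was not called (adjusted p = 0.212), and lowered IER2 1.25-fold in siNON cells (log2 −0.33 ± 0.0988 SE, adjusted p = 0.0264). With ethanol IER2 was 1.25-fold lower in siBCOR cells (log2 −0.32 ± 0.0988 SE, adjusted p = 0.035), and with dexamethasone the difference of −0.17 was not called (adjusted p = 0.184). The hormone call in siNON cells was lost without siNON dex replicate 1 or 4, or siNON EtOH replicate 1, 2 or 4 (adjusted p between 0.0509 and 0.0717), and with upper quartile scaling (0.0506). The depletion call with ethanol was lost without siBCOR EtOH replicate 1 or 3, or siNON EtOH replicate 1, 2 or 4 (adjusted p between 0.0805 and 0.118), with upper quartile scaling (0.0523), with library totals alone (0.073) and with only the 2 groups in the fit (0.108). Without siBCOR EtOH replicate 1 the hormone difference in siBCOR cells passed instead (−0.27, adjusted p = 0.046). The depletion difference with dexamethasone passed under 1 of the 27 alternatives.

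The EGR genes did not pass the test for dexamethasone in siNON cells, and all 3 were called lower in siBCOR cells when the hormone was present. The call of EGR2 rests on few reads. EGR1, the most studied of the EGR genes, is induced by growth factors and by synaptic activity. EGR1 had 18.9, 14.9, 20.1 and 14.8 CPM in the siBCOR dex libraries and 21.3, 19.4, 17.3 and 15.1 CPM in the siBCOR EtOH libraries. The siNON libraries had 27.2, 28.3, 25.1 and 19.3 CPM with dexamethasone and 29.6, 22.7, 17.4 and 22.2 CPM with ethanol. The siBCOR dex and siNON dex ranges met, since siNON dex replicate 4 lay below the highest siBCOR dex library. EGR1 was 1.46-fold lower in siBCOR cells with dexamethasone (log2 −0.54 ± 0.160 SE, adjusted p = 0.0148), and the call was lost without siNON dex replicate 2 (−0.48, adjusted p = 0.0516, with a range over all alternatives of 0.000265 to 0.0516). With ethanol the difference of −0.33 was not called (95% CI −0.67 to 0.01, adjusted p = 0.174). It was called without siNON EtOH replicate 3 (−0.50, adjusted p = 0.0319), and without both that library and siNON dex replicate 4 (adjusted p = 0.0101). Dexamethasone gave −0.09 (95% CI −0.43 to 0.25) in siBCOR cells and 0.12 (−0.21 to 0.46) in siNON cells.

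EGR3 takes part in the development of muscle spindles and of lymphocytes. EGR3 had 2.05, 1.69, 1.69 and 1.46 CPM in the siBCOR dex libraries and 2.01, 2.07, 1.88 and 1.53 CPM in the siBCOR EtOH libraries. In cells with siNON, values were 2.42, 3.15, 2.38 and 2.63 CPM with dexamethasone and 2.83, 2.42, 2.16 and 1.94 CPM with ethanol. With the hormone, all siBCOR libraries were below all siNON libraries, while with ethanol the 2 ranges met. EGR3 was 1.52-fold lower in siBCOR cells with dexamethasone (log2 −0.61 ± 0.15 SE, adjusted p = 0.00577), and the difference of −0.32 with ethanol was not called (95% CI −0.64 to 0.001, adjusted p = 0.163). Dexamethasone gave −0.11 (95% CI −0.45 to 0.22) in siBCOR cells and 0.18 (−0.13 to 0.48) in siNON cells.

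EGR2, a factor needed for myelination, rests on few reads, with 216 over all 16 libraries. It had 7, 7, 9 and 1 reads in the siBCOR dex libraries and 19, 14, 8 and 13 in the siBCOR EtOH libraries. Under siNON, it had 14, 10, 19 and 8 reads with dexamethasone and 27, 13, 29 and 18 with ethanol. Of its libraries 9 reached the level of the filter on low counts, 0 in siBCOR dex, 3 in siBCOR EtOH, 2 in siNON dex and 4 in siNON EtOH, so its calls carry less weight than the others. With only the 2 compared groups in the fit it was filtered out of both comparisons that called it. It was thus tested there only because libraries of other groups passed the filter. EGR2 was 2.42-fold lower with dexamethasone in siBCOR cells (log2 −1.27 ± 0.381 SE, adjusted p = 0.0222), where the groups met, and the −0.69 in siNON cells was not called (adjusted p = 0.125). It was 2.32-fold lower in siBCOR than in siNON cells with dexamethasone (log2 −1.21 ± 0.385 SE, adjusted p = 0.0215), and the −0.62 with ethanol was not called (adjusted p = 0.156). The hormone call was lost without siBCOR dex replicate 2 or 4 or siBCOR EtOH replicate 1 or 2 (adjusted p between 0.05 and 0.0711). The depletion call was lost without siBCOR dex replicate 4 or siNON dex replicate 1 or 3 (adjusted p between 0.0521 and 0.0874).

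The test of whether depletion changed the hormone response, the interaction, called 0 of the 10 genes, against 0.0183% of all genes higher and 0.0791% lower. The interaction of NR4A1 had the smallest p of the 10, at −0.42 on the log2 scale (95% CI −0.76 to −0.07), with edgeR's quasi-likelihood test giving an adjusted p of 0.228 and an unadjusted one of 0.0208, and it was the single member under 0.05 before adjustment. The interaction was −0.28 for NR4A2 (95% CI −0.57 to 0.01), 0.29 for NR4A3 (−0.27 to 0.85) and 0.06 for PHLDA1 (−0.19 to 0.31). This comparison depended strongly on siNON dex replicate 4: the test called 16 genes of all with it and 2537 without it, and NR4A1 was then called lower (−0.48, adjusted p = 0.0497). DESeq2 called 67 genes of all and 0 of the 10. The hormone calls of NR4A2, NR4A3, IER3, IER5, NR4A1 and PHLDA1 stood under each of the 27 alternatives run. Calls present in one kind of cell only, as for IER2 and EGR2, are thus not shown to differ between the kinds.

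Peaks of BCOR lay near most of these genes. The authors deposited 3 lists on hg19, with 3055 dex-enriched, 267 vehicle-enriched and 8587 shared peaks, and a gene was counted when any base of a peak lay within 5 kb of the start of its transcript. A peak was near 6 of the 10 genes, against 26% of all genes tested. Shared peaks were near 5 of them (EGR1, EGR2, IER2, IER3 and PHLDA1), against 22.8%, a vehicle-enriched peak was near 1 (EGR3), against 1.02%, and dex-enriched peaks were near 0, against 2.73%. Within 1 kb there were 3 genes with a peak, EGR1, EGR2 and PHLDA1, against 20.3% of all genes. Within 50 kb there were 8, against 54.3%, with NR4A1 and IER5 added. These lists combine the libraries of a treatment and carry no height, so no replicate check was possible.

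The peak nearest to a start was that of PHLDA1, a shared peak at chr12:76425160-76425478 inside the transcript, whose closest base was 78 bases downstream of the start (hg19, as are all peaks here). EGR2 had shared peaks at chr10:64576804-64577122 and chr10:64577525-64577843, 664 and 1385 bases upstream. EGR1 had a shared peak at chr5:137799889-137800267, 914 bases upstream, and a dex-enriched peak at chr5:137839394-137839728, 38213 bases downstream.

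EGR3 was the one gene with a vehicle-enriched peak, at chr8:22552534-22552852, 1719 bases upstream, with a shared peak 9723 bases upstream. The IER3 peak at chr6:30710781-30711099 was shared and lay across the end of the transcript, 1228 bases from the start, and the IER2 peak at chr19:13266039-13266373 was shared and began 4757 bases downstream, beyond the transcript. NR4A1 has several starts. Its chosen transcript had 4 peaks within 50 kb but none within 5 kb, among them a shared peak at chr12:52444618-52444936 in the transcript's span, just upstream of the start of another NR4A1 transcript at 52445186, and a dex-enriched peak at chr12:52409432-52409766, 21733 bases upstream. Counting every transcript's start, 7 of the 10 genes had a peak within 5 kb, with NR4A1 added. A transcript from 52445186 held 10963 reads, against 10991 for the NR4A1 transcript chosen, so NR4A1 is placed by a narrow margin. The nearest peak to IER5 was shared and 46.7 kb away, that to NR4A2 was dex-enriched and 68.0 kb away, and that to NR4A3 was shared and 555 kb away.

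**Figure D5:**
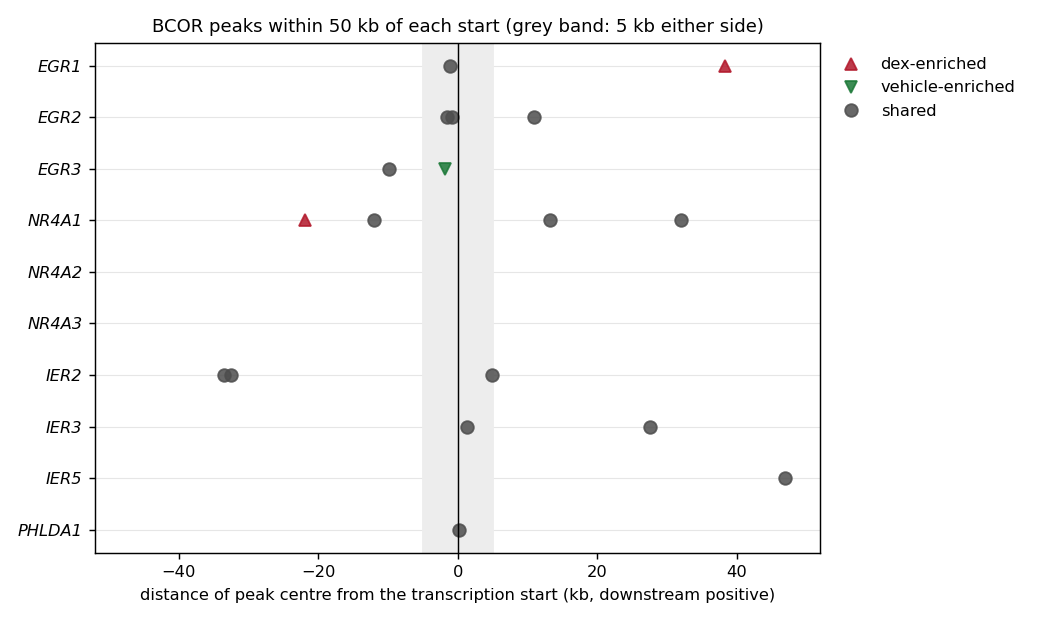
Distance of each BCOR peak's centre from the transcription start (horizontal axis, kb, downstream positive) for each gene, by peak list, with the band of 5 kb either side in grey. NR4A2 and NR4A3 have no peak within 50 kb, PHLDA1 has 1 at its start, and EGR3 has the single vehicle-enriched peak.

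NR4A2, the member raised by depletion in both treatments, was thus among the 4 genes with no peak within 5 kb of the chosen start. Over all genes tested, those with a peak within 5 kb (4274 genes) were called higher in 19.5% and lower in 22.6% of cases in siBCOR against siNON cells with dexamethasone, and those without one (12158 genes) in 21.1% and 17.4%. With ethanol the shares were 9.20% and 10.1% among genes with a peak, and 8.75% and 7.56% among genes without one. These shares are given as a background and were not tested.

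Other early response genes, 40 genes of which 39 could be tested, moved both ways with dexamethasone, 10 higher and 12 lower in siBCOR cells and 9 higher and 13 lower in siNON cells. These are 25.6% higher and 30.8% lower in siBCOR cells, against 10.5% and 12.5% of all genes tested, and 23.1% higher and 33.3% lower in siNON cells, against 10.7% and 8.64% of all genes. SGK1, a kinase gene long known as a glucocorticoid target, rose most clearly, with 89.9 ± 3.77 CPM in siBCOR dex and 4.68 ± 0.630 in siBCOR EtOH libraries, and 95.2 ± 7.23 in siNON dex and 4.65 ± 0.639 in siNON EtOH libraries (SD, n = 4 each). MYC, a growth-promoting transcription factor, fell with log2 fold changes of −2.61 ± 0.0998 SE in siBCOR and −2.69 ± 0.10 SE in siNON cells. RHOB, a small GTPase gene, rose by 1.65 in siBCOR and 1.86 in siNON cells. DUSP1, a phosphatase that switches off MAP kinases, rose by 1.65 in siBCOR and 1.40 in siNON cells, and TRIB1, a pseudokinase gene, fell by 1.55 in siBCOR and 2.00 in siNON cells. The median log2 fold change of the list was −0.01 in siBCOR and −0.17 in siNON cells.

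BCOR depletion left 7 of the 39 higher and 11 lower with dexamethasone, and 5 higher and 11 lower with ethanol, with list medians of −0.14 in both. With dexamethasone these are 17.9% higher and 28.2% lower, against 20.7% and 18.8% of all genes tested, and with ethanol 12.8% higher and 28.2% lower, against 8.87% and 8.23% of all genes. JUNB, a subunit of the AP-1 factor, had 10.3 ± 2.48 CPM in siBCOR EtOH and 19.7 ± 3.08 CPM in siNON EtOH libraries, a log2 fold change of −0.94 ± 0.153 SE (edgeR adjusted p = 0.000635), and it was also lower with dexamethasone (−0.51, adjusted p = 0.0167). KLF4 and GADD45A were lower in both treatments, with log2 fold changes of −0.38 for KLF4 and −0.54 for GADD45A with dexamethasone, and −0.55 for KLF4 and −0.63 for GADD45A with ethanol. ARC was lower and TRIB1 higher in both treatments, with −0.47 for ARC and 0.67 for TRIB1 with dexamethasone, and −0.74 for ARC and 0.22 for TRIB1 with ethanol. DUSP6 was higher with dexamethasone (0.56), and its −0.06 with ethanol was not called. FOS, the best known gene of the list, was not called in any comparison, with −0.41 in siBCOR and −0.47 in siNON cells for dexamethasone (FOS was chosen after its values were seen). The interaction called 0 of the 39.

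Of 37 genes that act upstream, in the ERK pathway or with SRF and CREB, dexamethasone raised 7 and lowered 3 in siBCOR cells and raised 10 and lowered 1 in siNON cells. These are 18.9% higher and 8.11% lower in siBCOR cells and 27.0% higher and 2.70% lower in siNON cells, beside the shares of all genes given above. ELK1, a partner of SRF at CArG boxes, was the clearest. ELK1 had 158 ± 10.2 CPM in siBCOR dex and 62.4 ± 5.41 in siBCOR EtOH libraries, and 252 ± 24.0 in siNON dex and 60.3 ± 5.35 in siNON EtOH libraries (SD, n = 4 each). It rose by 1.34 ± 0.0853 SE in siBCOR and 2.06 ± 0.0868 SE in siNON cells on the log2 scale, and it was the single gene of the list called in the interaction (−0.72 ± 0.119 SE, edgeR adjusted p = 0.0351). CRTC1, a CREB coactivator, rose by 0.78 in siBCOR and 0.90 in siNON cells. MAPK7, a MAP kinase, rose by 0.49 in siBCOR and 0.82 in siNON cells. SHC1, an adaptor of growth factor receptors, rose by 0.40 in siNON cells, and its −0.04 in siBCOR cells was not called. In siBCOR cells RPS6KA5, a kinase of CREB, rose by 0.74 and CRTC3, another CREB coactivator, fell by 0.49, and their values in siNON cells, 0.24 for RPS6KA5 and −0.18 for CRTC3, were not called.

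With dexamethasone depletion left 10 of these 37 higher and 11 lower, which is 27.0% and 29.7% of the list, against 20.7% and 18.8% of all genes tested. With ethanol 1 was higher and 0 were lower, against 8.87% and 8.23% of all genes. With dexamethasone the log2 fold change of siBCOR over siNON cells was −0.67 for ELK1, −0.50 for MEF2D, a factor of the same DNA-binding class as SRF, −0.43 for SHC1 and −0.42 for the RAF kinase ARAF. Of 12 relatives and partners of the members, 11 could be tested, and EGR4 was too low, with 0 to 5 reads in a library. Dexamethasone raised 2 and lowered 2 in siBCOR cells and raised 3 and lowered 1 in siNON cells. In siBCOR cells these are 18.2% and 18.2%, against 10.5% and 12.5% of all genes tested. In siNON cells they are 27.3% and 9.09%, against 10.7% and 8.64%. With so few genes a single call moves such a share widely. PHLDA2, a relative of PHLDA1, rose by 1.11 in siBCOR and 1.71 in siNON cells, and WT1, a zinc finger factor of the EGR type, fell by 0.69 in siBCOR and 0.42 in siNON cells. Depletion left 2 higher and 3 lower with dexamethasone (18.2% and 27.3%, against 20.7% and 18.8% of all genes). With ethanol it left 2 higher and 2 lower (18.2% and 18.2%, against 8.87% and 8.23%). PHLDA2 had 5.42 ± 0.610 CPM in siBCOR dex, 2.53 ± 0.697 in siBCOR EtOH, 13.9 ± 1.17 in siNON dex and 4.29 ± 0.722 in siNON EtOH libraries, with log2 fold changes for depletion of −1.37 with dexamethasone and −0.77 with ethanol. RXRB, a nuclear receptor that pairs with NR4A proteins, was higher in siBCOR cells by 0.20 with dexamethasone and 0.38 with ethanol. The other RXR genes of the list did not share this. RXRA was not called in either treatment, and RXRG was called lower with dexamethasone and not called with ethanol. The interaction called 0 of the 11.

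The genes whose responses were most like those of each member were read from 13422 tested genes with a mean of at least 50 reads, by the Euclidean distance over 3 log2 fold changes (dexamethasone in siBCOR cells, dexamethasone in siNON cells and depletion in ethanol). SLC39A14 (distance 0.099) and ZDHHC14 (0.12) were nearest to NR4A1, and HMGCS1 (0.034) and BAHCC1 (0.054) to NR4A3. PLCXD2 (0.229) was among the 2 nearest to NR4A2. FYN (0.028) and CCND1 (0.048) were nearest to IER3, KCTD15 (0.065) and C3orf52 (0.086) to IER5, and NKX2-4 (0.039) and WIF1 (0.043) to IER2. PHLDA1 and EGR2 had more distant neighbours, LINC01647 (0.271) and WNT16 (0.354) for PHLDA1 and INHBE (0.242) and SH2D5 (0.275) for EGR2. No member was among the nearest by construction, and EGR1 and EGR3, not called in these comparisons, have none.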

How the data were processed

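RNA was measured by poly(A) RNA-seq in 16 libraries, 4 biological replicates for each siRNA and treatment per the labels' protocols. The series text speaks of 3 replicates, but 4 are labelled and all were used. The authors deposited raw read counts over the exons of 65572 RefSeq transcripts on hg19, made by HOMER without depth adjustment per the file headers. HOMER 4.10.3, Bowtie 0.12.9, TopHat2, Trimmomatic, FastQC and bedtools are named in the submitters' processing notes, without their roles. The 3 deposited peak lists carry a score column that is 0 for every peak, and how peaks were put in a class is not given in the sources used here.

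Each symbol was represented by its transcript with most reads, summed over the libraries. The 10 genes have 21 transcripts, which share reads, and 6 of them have 1. The 134 transcripts without a symbol, with 0.0664% of reads, were left out, which left between 18580294 and 28054808 reads per library. After edgeR's default filter on low counts, 16432 genes, including all 10, were scaled by TMM. They were fitted as 4 group means with edgeR 4.0.16 (R 4.3.3, limma 3.58.1) and tested with quasi-likelihood F tests, adjusted over all genes by Benjamini-Hochberg and called at 0.05. SE is the log2 fold change divided by the square root of F. DESeq2 1.42.0, other scalings, filters and transcript choices, a replicate block and leaving out libraries were alternatives. The fit was tested on simulated data. Genes from the lists are named if they are among the up to 4 called genes with the smallest adjusted p of a list and comparison, and 2 nearest genes are named for each member called in the 3 comparisons compared. Values of 2 genes that these rules name are not reported here. The members, the lists and these rules were chosen with earlier results of these data known.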

Additional observations from a re-analysis of the deposited data

How the results depend on the processing

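Of 1338 fold changes of the 10 genes under alternatives, 1273 kept their direction and side of the threshold, 23 lost a call, 8 gained one and 34 turned sign, all of genes that were not called. IER3 for depletion with ethanol turned to −0.0083 with DESeq2's size factors in edgeR, −0.00031 with upper quartile scaling, −0.00050 without a filter, −0.0087 with DESeq2 and −0.088 without siNON dex replicate 4 and siNON EtOH replicate 3. PHLDA1 in that comparison turned to −0.0018 with DESeq2's size factors, −0.0026 with DESeq2 and −0.0034 without those 2 libraries. IER3 for depletion with dexamethasone turned to −0.014 with DESeq2's size factors, −0.056 with upper quartile scaling, −0.0085 without a filter, −0.0018 with all transcripts summed, −0.015 with 2 groups in the fit, −0.017 with DESeq2 and −0.028 without the 2 libraries, and its interaction to 0.060 without them.

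Leaving out each library in turn gave ranges of −0.0066 to 0.27 for EGR1 with dexamethasone in siNON cells, −0.042 to 0.058 for IER3 with depletion in dexamethasone, and −0.086 to 0.11 for IER3, −0.15 to 3.8e-05 for IER5, −0.18 to 0.033 for NR4A1 and −0.006 to 0.064 for PHLDA1 with depletion in ethanol. The interaction ranged over −0.097 to 0.073 for IER3 and −0.11 to 0.022 for IER5. Members called lower by depletion in ethanol numbered 0 to 2, those called higher in dexamethasone 0 to 2 and those called lower in the interaction 0 to 1. Genes called over the whole table numbered 1810 to 3463 for depletion in ethanol (2809 with all libraries), 4198 to 8170 in dexamethasone (6489) and 2 to 2537 for the interaction (16).

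With depletion in ethanol 0 members were lower under upper quartile scaling, library totals alone or 2 groups in the fit, and 2 without both libraries. In that comparison 1526 genes were called with 2 groups in the fit. The interaction called 5 genes with DESeq2's size factors, 6 with upper quartile scaling, 4 with totals alone or all transcripts summed, 5 without a filter, 1785 without both libraries and 67 with DESeq2. With depletion in dexamethasone 2 members were higher with totals alone. The cause of these changes was not tested. Same-numbered replicates did not deviate together, with 6 of 24 pairs correlated above 0.1 (lowest −0.526, median −0.0071, highest 0.503) and 4 of 16 libraries closest to their own number. With the replicate block, depletion in dexamethasone raised 2 members (NR4A3 at 0.49, adjusted p = 0.0284) and the interaction called 3 genes.

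Peaks of any list were near 3 members within 1 kb, shared ones near 3 within 1 kb and 8 within 50 kb, dex-enriched ones near 2 within 50 kb and vehicle-enriched ones near 0 within 1 kb. A stricter peak threshold was not run, since the deposited score is 0 throughout, and EGR2 gave no value for the hormone in siBCOR cells or for depletion in dexamethasone with 2 groups in the fit, where its counts were filtered out.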
